A study of Mus musculus with 3 samples.

Results

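Homeobox, Pax, Sox and Pou genes encode transcription factors that set position and cell fate in the embryo. Hox genes lie in 4 clusters, a to d, and are switched on in the order in which they lie, so that genes at opposite ends of a cluster mark opposite ends of the body axis. Meis and Pbx proteins are partners that bind DNA together with Hox proteins. Pax, Sox and Pou proteins act in developing neurons and in the neural crest, the lineage from which sympathetic neuroblastoma arises. The members described here are the gene spots whose symbol begins with Hox (clusters a to d), Pax, Lhx, Dlx, Sox, Pou, Nkx, Meis, Pbx or Irx, or with the stem of Six4 and its relatives, with a number after the stem except for Nkx. The choice used names and no measured value, and it found 139 of 21761 probes, which carry 126 symbols of the files. By family these were 35 Hox probes (12 Hoxa, 8 Hoxb, 6 Hoxc and 9 Hoxd), 22 Sox, 19 Pou, 15 Nkx, 10 Lhx, 10 Pax, 8 Dlx, 6 Irx, 4 Pbx and 3 Meis probes, and 7 probes of Six4 and its relatives.

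The mouse neuroblastoma line N1E-115 was measured on 3 spotted arrays of 2 colours. On each array the Alexa555 channel held RNA of cells given the pEGFP-C1 plasmid, which makes only the green fluorescent protein. The Alexa647 channel carried RNA from cells given pEGFP-Nav1.2CTFlag. The latter encodes EGFP joined to 229 amino acids of the carboxyl end of the mouse sodium channel NaV1.2 with a Flag tag, and it is called NaV1.2CT here. Each value is a log2 ratio of NaV1.2CT over EGFP, so a negative value means less signal with the channel fragment. All cells were plated in the same serum-containing medium, transfected with polyethylenimine and 2 µg of plasmid 24 h after plating, and lysed 48 h later. Each RNA came from 3 pooled dishes. By the labels there was 1 array with cells kept at 5 mM glucose, called low glucose, and there were 2 arrays at 20 mM, called high glucose replicates 1 and 2, although the protocol for growth gives the same low-glucose medium throughout. Values of the arrays are listed below in that order. Transfection was not followed by any selection that the labels name, so each RNA may also hold that of untransfected cells.

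Across all spots, median raw intensity lay between 1012 and 1545 in the EGFP channel and between 808 and 1228 in the NaV1.2CT channel. An array gave 1 ratio per spot and the number of arrays limits the precision. Whether the arrays stand for separate cultures is not stated, so a p-value here reflects no more than the scatter among these arrays. The dyes were the same way round on every array, so dye and plasmid cannot be told apart. The array used at low glucose carries a number from a different array series, so that series and the glucose level cannot be told apart either. In pooled RNA, fewer cells with a transcript and less of it per cell cannot be told apart. Markers did not single out a cell type. Of 16 sympathetic neuroblastoma markers, 15 had a spot and 14 were above the limit set by the empty spots on every array, with Dbh not among the spots and Ngfr below that limit. Of 10 fibroblast markers 8 were above it (Col1a1 and Dcn were not), and of 9 glial markers 7 (S100b and Fabp7 were not). Of all probes, 89.7% were above it on 3 arrays. Signal above the limit is therefore not taken as proof of a transcript, and each gene below stands for the spot of that name.

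The empty limit is the 95th percentile of raw minus background intensity in the 1235 empty spots, taken in each channel. Of the members, 127 of 139 were above it in both channels on 3 arrays, beside 89.7% of all probes. Member spots at the scanner's limit numbered 0. Those that were not include the spots of Sox2, a pluripotency and neural progenitor factor, and Meis3, which were above it on 0 arrays. The spots of Meis2 and Sox4 were above it on 2 arrays. There was no spot for Hoxc5 among the members.

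Promoters are shown for the member genes that passed in both comparisons described below, were above the empty limit on 3 arrays and have a single entry in the promoter table used here, which is from RefSeq on the mouse assembly GRCm38.p6. These are 2 genes, Pax8 and Sox8. Each stretch is the 250 bases before the annotated start of transcription, 5′ to 3′ on the minus strand, at chr2:24475600-24475849 for Pax8 and chr17:25570687-25570936 for Sox8. Capitals mark a CCAAT box, the only kind of match found.
Pax8: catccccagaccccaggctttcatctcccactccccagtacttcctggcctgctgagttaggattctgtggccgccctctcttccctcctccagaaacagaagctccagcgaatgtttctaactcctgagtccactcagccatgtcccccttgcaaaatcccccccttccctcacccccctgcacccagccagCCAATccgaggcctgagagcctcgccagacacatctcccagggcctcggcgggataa
Sox8: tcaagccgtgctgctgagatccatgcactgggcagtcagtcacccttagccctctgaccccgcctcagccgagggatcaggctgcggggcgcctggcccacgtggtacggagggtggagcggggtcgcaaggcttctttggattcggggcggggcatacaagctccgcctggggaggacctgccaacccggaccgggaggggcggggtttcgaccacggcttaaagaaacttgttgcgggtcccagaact

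Both stretches are rich in G and C, at 60.4% for Pax8 and 65.6% for Sox8. The members' promoters share this feature, which the choice by name did not use. Of 125 member genes, 85 were matched to that table, which is not complete, with 104 promoters in all, and their median content of G and C was 60.8%, beside 52.4% over all 32851 promoters of the table. The motifs searched on both strands, with no overlap between their matches in these stretches, were the TATA box core TATAAA, the CCAAT box CCAAT, the homeodomain core TAATTA and the paired Hox and Pbx site TGATNNAT. CCAAT was in 42.3% of the members' promoters and 33.8% of all. TATAAA was in 8.65% and 12.4%, TAATTA in 1.92% and 4.84%, and TGATNNAT in 3.85% and 7.68%. These are matches of letters and say nothing of binding. The arrays measured RNA and nothing at these promoters.

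The question of the main contrast was how the channel fragment moves transcripts of these regulators. Over all 3 arrays, 9 of 139 member probes passed limma's test at an adjusted p of 0.05, 8 lower with NaV1.2CT and 1 higher. That is 6.47% of the members, beside 3.85% of all probes (2.68% lower and 1.17% higher). Among probes above the empty limit on 3 arrays, 4.72% of the members and 3.59% of all probes passed. On the high glucose arrays alone 5 members passed, 4 lower and 1 higher, or 3.6% of the members, beside 2.11% of all probes (1.42% lower and 0.689% higher). All 5 are among the 9, and the 2 comparisons share the high glucose arrays. The spots that fell in both comparisons were Hoxb5, Lhx5, Pax8 and Six4, and the spot that rose was Sox8. Over 3 arrays the spots of Hoxa10, Pax7, Nkx1-2 and Nkx2-1 were also lower. Leaving out the low glucose array is the same fit as the high glucose comparison, with its 5 members. Without high glucose replicate 1 also 5 passed, and without replicate 2 it was 10. No member passed when low was set against high glucose. With the processing used here the changes were small, since the largest among members with signal on every array was 1.23-fold. Some sizes depended on the background correction. With plain background subtraction the mean log2 ratio over 3 arrays was -0.40 for Lhx5, -0.32 for Hoxa10 and -0.30 for Pax8. With the correction used here these were -0.30, -0.24 and -0.23. Hoxb5 stayed at -0.30, and Pax7 (-0.17 beside -0.16) and Sox8 (0.20 beside 0.21) moved little. None of these passed limma's test with plain subtraction. With the processing used here, 39 members passed at an unadjusted p of 0.05 over 3 arrays, beside 24% of all probes. On the high glucose arrays 42 did, beside 22.2%.

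**Figure D1:**
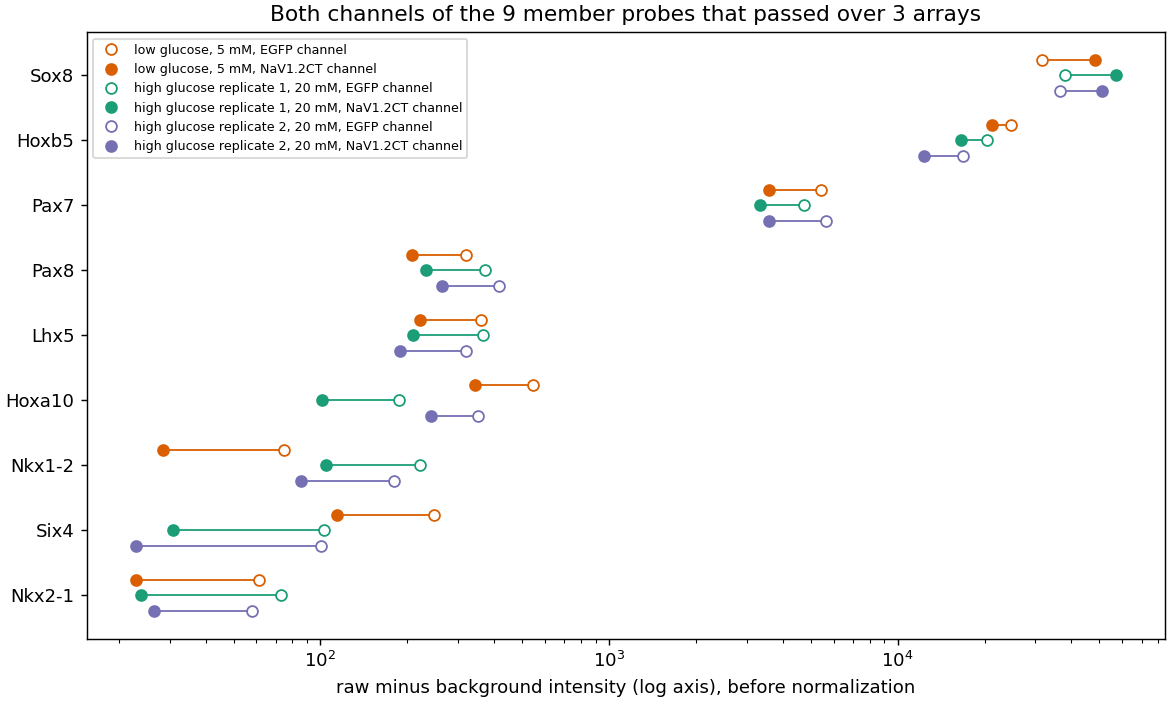
Raw minus background intensity before normalization (log axis, arbitrary units) of the 9 member probes that passed over 3 arrays, with the EGFP channel as open and the NaV1.2CT channel as filled points joined by a line for each array. Sox8 is the 1 probe with its filled points to the right, and Six4, Nkx1-2 and Nkx2-1 reach down to the level of empty spots. The median raw intensity of all spots was also lower in the NaV1.2CT channel on each array.

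Hoxb5 is a Hox factor of the neck and upper trunk with a known role in neural crest cells of the gut. Its spot had log2 ratios of -0.28 at low glucose and -0.25 and -0.37 at high glucose. Every array was lower, and no array stood apart. The mean was -0.30 ± 0.063 (SD, n = 3), which is 1.23-fold lower, with a limma adjusted p of 0.0114 over 3 arrays and 0.026 on the high glucose arrays. Its intensity before normalization fell from 24691 in the EGFP channel to 21284 in the NaV1.2CT channel at low glucose, and from 20318 to 16591 and from 16795 to 12335 at high glucose. The median raw intensity of all spots was also lower in the NaV1.2CT channel on each array. It was 1545 and 1228 at low glucose, and 1070 and 855 and then 1012 and 808 at high glucose. A fall before normalization, here and for the genes below, therefore does not by itself show less transcript. The size depended on the loess step: with arrays only centred on their median the mean was -0.05 (limma adjusted p = 0.451). Of the 9 probes it was the 1 that did not pass with that setting. The authors' deposited z-scores for it were -2.62, -2.14 and -2.66 in the same order, and their sign follows NaV1.2CT over EGFP. Hoxa5, its paralog in the a cluster, did not pass and had log2 ratios of -0.0014, 0.04 and 0.10.

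Hoxa10, a gene of the posterior part of its cluster with roles in the uterus and blood, was the other Hox spot that passed. Its log2 ratios were -0.27 at low glucose and -0.32 and -0.11 at high glucose, the last of these the smallest of the 3. The mean was -0.24 ± 0.11 (SD, n = 3), with a limma adjusted p of 0.0312 over 3 arrays and 0.0755 on the high glucose arrays. Its intensity fell from 546 to 342, from 187 to 102 and from 350 to 243 in the same order of arrays. The call was lost without high glucose replicate 1 (limma adjusted p = 0.0663) and without the low glucose array. Hoxa11, the next gene of the cluster, lay on the other side, with log2 ratios of 0.05, 0.07 and 0.29, and did not pass (limma adjusted p = 0.136).

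By cluster, the Hoxb probes lay lowest. Their median log2 ratio over 3 arrays was -0.096, and 5 of 8 were below 0 on every array, beside 25.1% of all probes. Besides Hoxb5 these were Hoxb4, Hoxb6, Hoxb7 and the X62311 probe of Hoxb3, and none of these others passed. The highest mean of the cluster was 0.0028, for Hoxb9. Among 6 Hoxc probes the median was -0.039 and 4 were below 0 on every array, with Hoxc6 lowest (-0.10, -0.09 and -0.10) and Hoxc9 highest (0.06, -0.06 and 0.18). The 12 Hoxa probes had a median of -0.0083 and the 9 Hoxd probes 0.011, with Hoxd8 lowest (-0.08) and Hoxd11 highest (0.04). No order by position within a cluster was tested. The clusters were compared by description only, and the probes of a cluster are not replicates. The Hoxb3 probes disagreed in size: X62311 had log2 ratios of -0.14, -0.06 and -0.26, and X66177 -0.05, -0.04 and 0.03. An antisense transcript of the Hoxa11 locus had ratios of 0.03, -0.08 and -0.15. The sources used here do not give the strand of the probes, so it and Hoxa11 cannot be told apart with certainty, and likewise the antisense transcripts named for Dlx6 and Six6 and their partners.

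**Figure D2:**
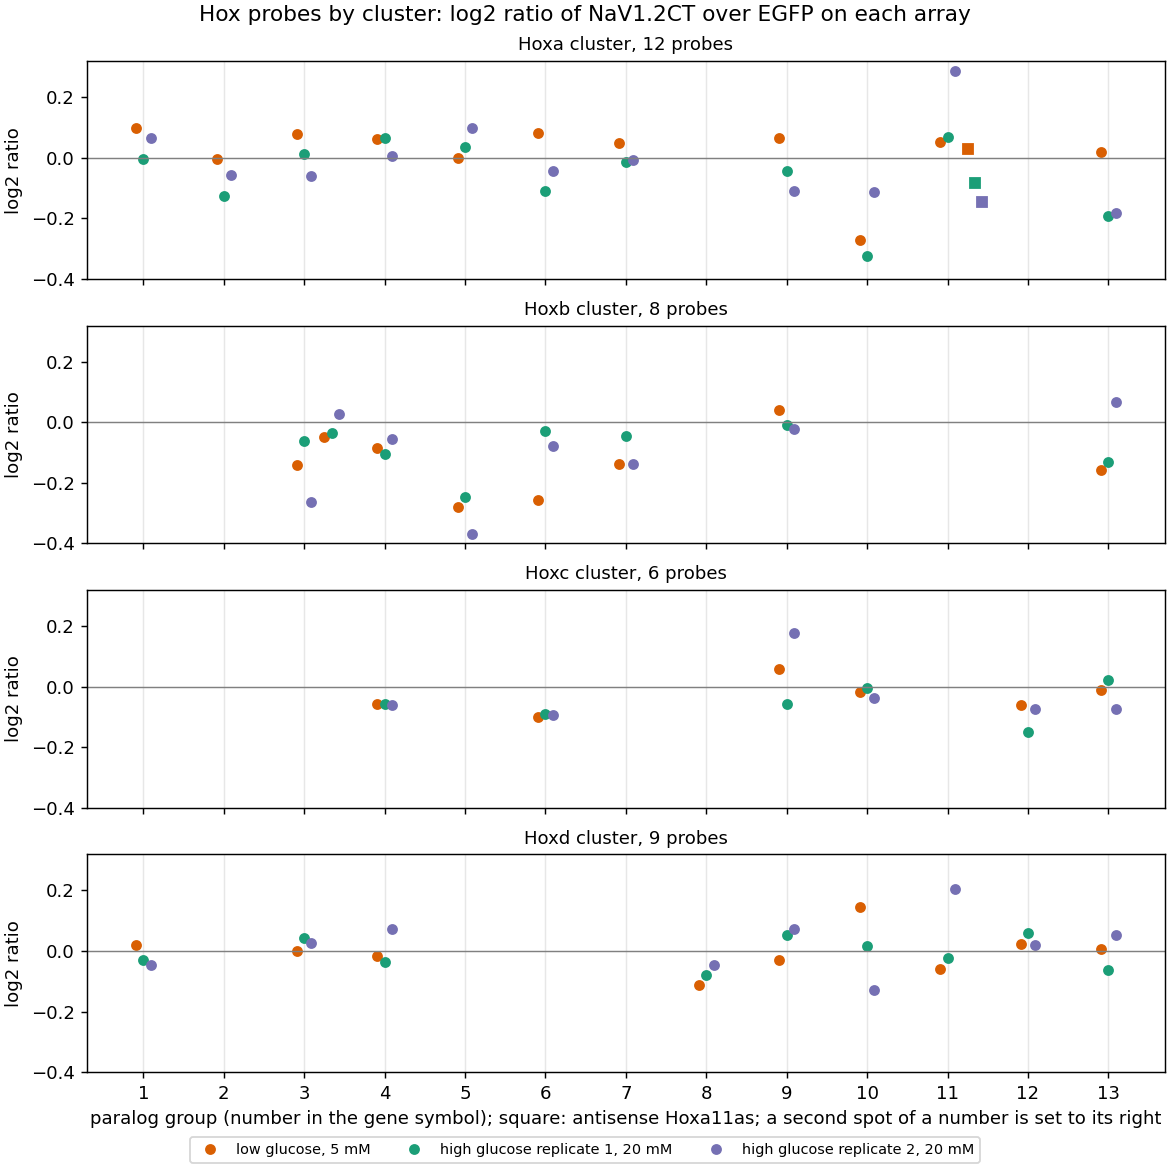
Log2 ratio of NaV1.2CT over EGFP (vertical axis) of the 35 Hox probes by cluster and by the number in the gene symbol (horizontal axis), with 1 point for each array. In the Hoxb panel 5 of 8 probes have all 3 points below 0, and Hoxb5 and Hoxa10 are the probes that passed the test.

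The Pax family had 2 probes lower in the 3-array comparison, and both are of genes known for organ and muscle lineages. Pax8, a regulator of thyroid and kidney development, had log2 ratios of -0.19 at low glucose and -0.27 and -0.24 at high glucose. These 3 values lie close together. Their mean was -0.23 ± 0.040 (SD, n = 3), which is 1.18-fold lower, with a limma adjusted p of 0.0187 over 3 arrays and 0.0297 on the high glucose arrays. Intensity fell from 320 to 208, from 371 to 232 and from 414 to 264 in that order of arrays, so both channels were dim but above the empty limit, which lay between 67.8 and 93.3.

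Pax7, a marker of muscle stem cells and dorsal neural progenitors, had log2 ratios of -0.16, -0.10 and -0.22. All 3 arrays were lower. Its mean was -0.16 ± 0.061 (SD, n = 3), with a limma adjusted p of 0.0482, and the call was lost when any array was left out (limma adjusted p from 0.0575 to 0.123). Pax3, the close relative of Pax7 that acts in the neural crest, had log2 ratios of -0.08, -0.17 and -0.08, and did not pass (limma adjusted p = 0.111). Pax6, an eye and forebrain regulator, had probes with means of 0.0066 for AF098640, described in the files as promoter sequence, and 0.011 for NM_013627. The highest mean of the family was 0.04, for Pax2 of the kidney and ear, and its median was -0.070.

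Lhx5, a LIM homeodomain factor of forebrain and spinal interneurons, had log2 ratios of -0.27 at low glucose and -0.39 and -0.23 at high glucose. High glucose replicate 1 was the lowest of the 3, and all were below 0. The mean was -0.30 ± 0.082 (SD, n = 3), which is 1.23-fold lower, with a limma adjusted p of 0.0133 over 3 arrays and 0.0292 on the high glucose arrays. Intensity fell from 361 to 221, from 366 to 209 and from 320 to 188. No other Lhx probe passed, and the highest mean was 0.05, for Lhx3 of motor neurons and pituitary. Lhx6 and Lhx9 each had 2 probes that did not move alike. For Lhx9, a gonad and neural factor, AK014037 had ratios of -0.05, -0.12 and -0.30 and NM_010714 -0.03, 0.06 and 0.09. For Lhx6, a factor of cortical interneurons, AB031040 had 0.0065, -0.15 and -0.22 and NM_008500 0.0029, -0.02 and 0.10.

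Six4, a sine oculis homeobox gene of muscle and sensory placodes, was called at the edge of detection. Its log2 ratios were -0.24 at low glucose and -0.54 and -0.23 at high glucose, and both of its channels exceeded the empty limit at low glucose alone. On both high glucose arrays the EGFP channel was above the limit (103 and 100.3) and the NaV1.2CT channel was not (30.8 and 22.9). The change there is therefore only a bound: EGFP was at least 1.01-fold higher than NaV1.2CT, taking the dim channel at the lowest normalized signal above the limit. This bound was not tested. The limma adjusted p of 0.035 on these arrays belongs to the mean log2 ratio, which uses the signal below the limit. Over 3 arrays the limma adjusted p was 0.0261.

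Of the Nkx genes, 2 probes were called over 3 arrays (lower) and none on the high glucose arrays. The AF222444 probe of Nkx1-2, a gene of the caudal embryo and spinal cord, had log2 ratios of -0.34, -0.21 and -0.17 (limma adjusted p = 0.0273). It was above the empty limit on both high glucose arrays but not on the low glucose array, and without the low glucose array the limma adjusted p was 0.0556. The other Nkx1-2 probe, NM_009123, was above the limit on 3 arrays and had ratios of -0.0078, -0.04 and -0.06 (limma adjusted p = 0.535). The spot of Nkx2-1, a lung, thyroid and forebrain regulator, also passed (limma adjusted p = 0.0395), but it was above the limit on 0 arrays, so no size is given. It did not pass without the low glucose array or without high glucose replicate 1 (limma adjusted p = 0.0987 and 0.0563).

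Sox8, an HMG box factor that acts with Sox9 and Sox10 in neural crest and glia, was the only member that rose. Its log2 ratios were 0.19 at low glucose and 0.25 and 0.18 at high glucose. All 3 arrays were higher. The mean was 0.21 ± 0.038 (SD, n = 3), which is 1.16-fold higher, with a limma adjusted p of 0.0233 over 3 arrays and 0.043 on the high glucose arrays. The intensity rose from 31631 to 48305, from 38050 to 56889 and from 36651 to 51024. Sox8 lay in the bright range, where most probes lean up: with A the mean log2 intensity of both channels, the 207 probes of the array with an A of 15 to 16 had a median log2 ratio of 0.15, and 94.2% of them were above 0. Over 3 arrays 39.6% of these probes passed, beside 3.85% of all probes. After a further loess over intensity Sox8 still passed, at 0.18 (limma adjusted p = 0.0317), and without high glucose replicate 1 it did not (limma adjusted p = 0.0631). The authors' deposited z-scores were 0.811, 0.193 and 0.18.

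**Figure D3:**
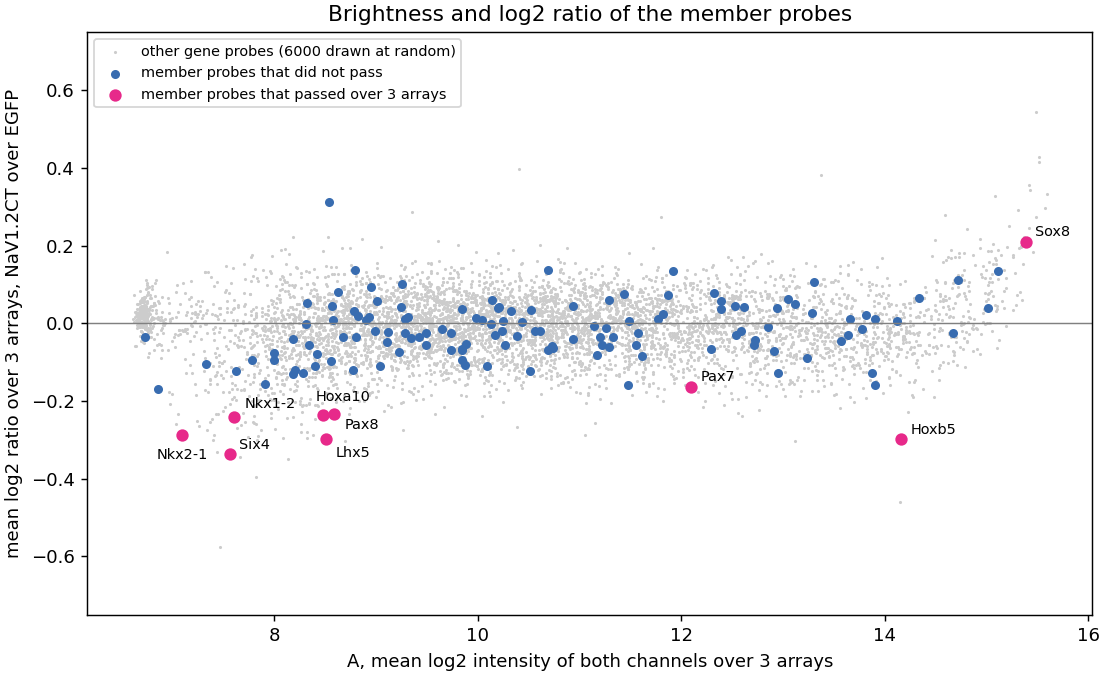
Mean log2 ratio over 3 arrays (vertical axis, clipped at 0.75 either way) against A, the mean log2 intensity of both channels (horizontal axis), for the 139 member probes and 6000 other probes drawn at random. Sox8 sits in the bright range where probes lean up, Hoxb5 lies at -0.30 at an A of 14.2, and Nkx2-1, Six4 and Nkx1-2 lie in the dim range.

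The crest and glial relatives of Sox8 did not pass. Sox9, of cartilage and crest, had log2 ratios of 0.08, 0.02 and -0.07. Sox10, of crest and glia, had -0.02, -0.08 and -0.07, from a spot described in the files as the Dominant megacolon mutant form. The 3 probes of Sox11, a factor of immature neurons, had means of -0.11, -0.02 and 0.08 and lay on both sides of 0, as did those of Sox12 (-0.01 and 0.11). Sox4, its relative, had 0.18, -0.03 and -0.03, with raw minus background below 0 in both channels on high glucose replicate 1. Other probes of the bright range were Nkx2-3, a gut and spleen factor, with -0.0020, 0.24 and 0.17 (limma adjusted p = 0.128 over 3 arrays and 0.0501 on the high glucose arrays), and Nkx6-2, with -0.03, 0.05 and 0.10.

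Of 19 Pou probes 0 passed limma's test in either comparison, and 5 had an unadjusted p under 0.05 over 3 arrays, a share near the 24% of all probes that did. Pou factors pair a POU-specific domain with a homeodomain and act in neurons and stem cells. Pou2af1, a partner of Pou proteins in B cells rather than a DNA-binding family member, had the lowest mean, with log2 ratios of -0.23, -0.12 and -0.13 (limma adjusted p = 0.0531). Pou4f2, a factor of retinal ganglion cells, had the highest, with 0.05, 0.88 and 0.0054. The value of 0.88 came from high glucose replicate 1, where intensity was 45.8 in the EGFP channel, below the empty limit of 83.7, and 101.3 in the NaV1.2CT channel. Pou3f2 and Pou4f1, neuronal regulators, each had 2 probes. The means were 0.04 and 0.07 for Pou3f2, and 0.11 (AK021397) and -0.04 (X51959) for Pou4f1. For Pou4f1 the probes lay on opposite sides of 0. The Pou1f1 probes, of a pituitary factor, had means of -0.04 and -0.05, and the Pou6f1 probes -0.05 and -0.06. Pou5f1, the pluripotency factor also called Oct4, had ratios of 0.05, -0.02 and -0.10.

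The Hox partners did not pass either. Meis1 had log2 ratios of -0.06, -0.11 and -0.09 and was the only Meis probe above the limit on 3 arrays (limma adjusted p = 0.161). Pbx3 had -0.04, -0.18 and -0.16 (limma adjusted p = 0.0966). All 3 Meis probes were below 0 on every array, beside 25.1% of all probes. After the centring of print groups described below, 2 of them were. Among the Irx genes, patterning factors of nervous system and heart, Irx4 was lowest (-0.14, -0.10 and -0.14, limma adjusted p = 0.0732) and Irx2 highest (0.05, 0.08 and 0.05). Dlx genes, which act in forebrain and branchial arches, ran from -0.04 for Dlx5 to 0.08 for Dlx4, and the family's median was 0.012. Family medians over 3 arrays lay between -0.088 for Meis and 0.012 for Dlx.

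**Figure D4:**
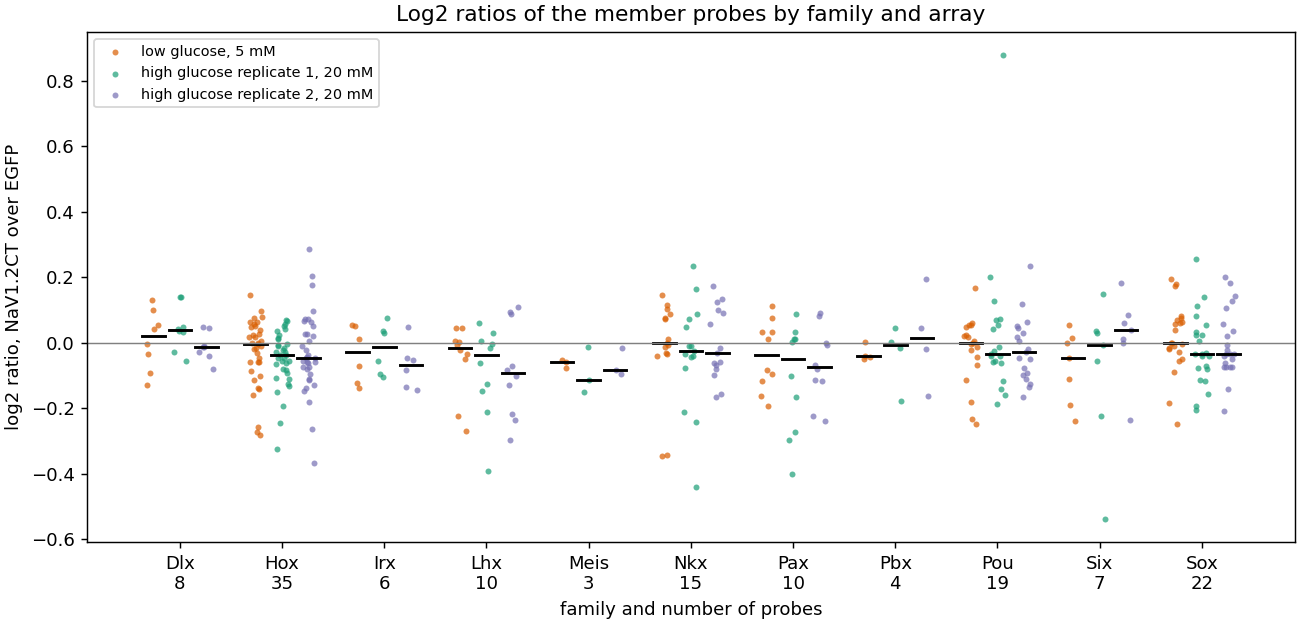
Log2 ratio of NaV1.2CT over EGFP (vertical axis) of the 139 member probes by family (horizontal axis, with the number of probes), with 1 point per probe and array and a black bar for the median of each array. Most points lie within 0.2 of 0, and the point at 0.88 is Pou4f2 on high glucose replicate 1.

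As a whole the members leaned down. On all 3 arrays 44 members, or 31.7%, were below 0, beside 25.1% of all probes, and 16, or 11.5%, were above 0, beside 21.8%. The members' median over 3 arrays was -0.024, beside -0.0034 for all probes. Printing position moved with this lean. Of the members, 112 (80.6%) lay in 3 print groups, meaning the same 8 neighbouring positions in each of 48 print blocks. The other 1024 probes of those groups, named for other genes, had a median of -0.029, and 36% of them were below 0 on 3 arrays and 15.1% above. Of the 112 members there, 29.5% were below and 12.5% above. Over 3 arrays 7.14% of these members and 5.37% of their print neighbours passed. When each print group was centred on its own median, 35 members (25.2%) were below 0 on 3 arrays and 34 (24.5%) above, beside 23.2% and 23% of all probes, and the members' median was -0.0061. After this Hoxb had a median of -0.076, with 5 of 8 probes below 0 on 3 arrays and 1 above, and the 9 called probes kept their direction, with Pax7 and Nkx2-1 no longer past the threshold (limma adjusted p = 0.0638 and 0.0674).

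Low glucose was set against high glucose to ask whether the effect of the fragment on these genes moved with the glucose level. Of 139 members 0 passed limma's test, beside 0.0276% of all probes, and 14 had an unadjusted p under 0.05, beside 7.5% of all probes. The largest positive differences in log2 ratio, low minus high, were 0.30 ± 0.087 (SE) for Nkx3-2, a skeletal repressor, 0.24 ± 0.089 for Pax1, of vertebral precursors, and 0.22 ± 0.070 for Sox4. The most negative were -0.39 ± 0.27 for Pou4f2, -0.29 ± 0.072 for the AK009674 probe of Pou6f1 and -0.23 ± 0.071 for Six6os1. Of these, both Sox4 channels were below the empty limit on high glucose replicate 1, and Pou4f2 had both channels above it on neither high glucose array, so these differences rest in part on signals not above background. The limma adjusted p of the 6 ran from 0.445 to 0.762. The other Pou6f1 probe had a difference of 0.10. A p that misses the threshold with 1 array at low glucose does not show that the effect was alike.

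Brightness also differed between the arrays, and A was not normalized between them. The median difference in A, low minus high glucose, was 0.34 for the members and 0.27 for all probes. A spot's A differed by over 1 between the low glucose array and the mean of the high glucose arrays for 31 members that were brighter on the low glucose array (22.3%, beside 19.3% of all probes) and 7 that were brighter on the high glucose arrays (5.04%, beside 3.39%). The difference was 3.62 for Pou4f2, brighter at low glucose, and -2.49 for Pou2f2, brighter at high glucose. No test of these levels was made, for the reason of the array series given above.

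Other lists give the setting of these values. Of 56 other homeodomain genes, 49 had a spot, and over 3 arrays 2 were higher and 3 lower, where 1.17% of all probes were higher and 2.68% lower. The spots of Cdx2, a caudal gene of the gut (0.22, limma adjusted p = 0.0196), and Isl1, of sympathetic and motor neurons (0.18, limma adjusted p = 0.042), rose. Those of Gbx2, of the hindbrain border (-0.17, limma adjusted p = 0.0422), and En1, of the midbrain (-0.23, limma adjusted p = 0.0455), were among those that fell. The list's median was 0.0026. On the high glucose arrays Cdx2 and Onecut1 were higher and Prrx1 lower, where 0.689% of all probes were higher and 1.42% lower. At low glucose Onecut1 was at -0.12 and Prrx1 at 0.04, and neither passed over 3 arrays (limma adjusted p = 0.370 and 0.173). The Prrx1 spot was above the empty limit on 2 arrays. Among 24 of 25 Polycomb and Trithorax regulators, which keep Hox clusters silent or active, Kdm6b, an enzyme that removes a silencing histone mark, was higher (0.20, limma adjusted p = 0.0331) at an A of 15.2, in the bright range described for Sox8, and did not pass on the high glucose arrays (limma adjusted p = 0.0808). Rbbp5, a subunit of complexes that write an activating mark, was lower (-0.30, limma adjusted p = 0.0175). It also passed on the high glucose arrays (limma adjusted p = 0.0391), where 2.11% of all probes passed. Over 3 arrays 2 of these 24 regulators passed, beside 3.85% of all probes. Of 17 genes of retinoic acid signalling, which switches on Hox genes in the embryo, 15 had a spot and 0 passed in either comparison, and 2 had an unadjusted p under 0.05 over 3 arrays, where 24% of all probes did.

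Marker lists of other cells moved little. Of the fibroblast and glial markers 0 passed over 3 arrays (by limma, 1 and 2 at an unadjusted p of 0.05, where 24% of all probes passed), and their medians were 0.019 and -0.0023. Of the 15 sympathetic markers with a spot, Isl1 rose and Slc6a2, the noradrenaline transporter, fell (-0.23, limma adjusted p = 0.0187), where 3.85% of all probes passed. The median of this list was 0.018. On the high glucose arrays Slc6a2 passed (limma adjusted p = 0.039) and Isl1 did not (limma adjusted p = 0.106). Summed intensity of the fibroblast list ran from 27039 to 47200 in the EGFP channel and from 22593 to 42492 in the NaV1.2CT channel, and that of the glial list from 43849 to 45001 and from 42507 to 51956. The part of other cells in the members' values was not tested.

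The counts moved with the processing. With plain background subtraction, with the authors' net intensities and with the authors' deposited ratio, the 9 probes kept their direction and 0 of them passed over 3 arrays (limma adjusted p from 0.0508 to 0.193), where 1 to 4 of all probes were called in either direction. With loess over the whole array in place of print blocks, 59 members passed, 15 higher and 44 lower, or 42.4%, where 34.9% of all probes passed. The 9 were among these 59. Hoxb5, Lhx5, Pax8 and Six4 passed whichever array was left out, where leaving out the low glucose array repeats the high glucose comparison.

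**Figure D5:**
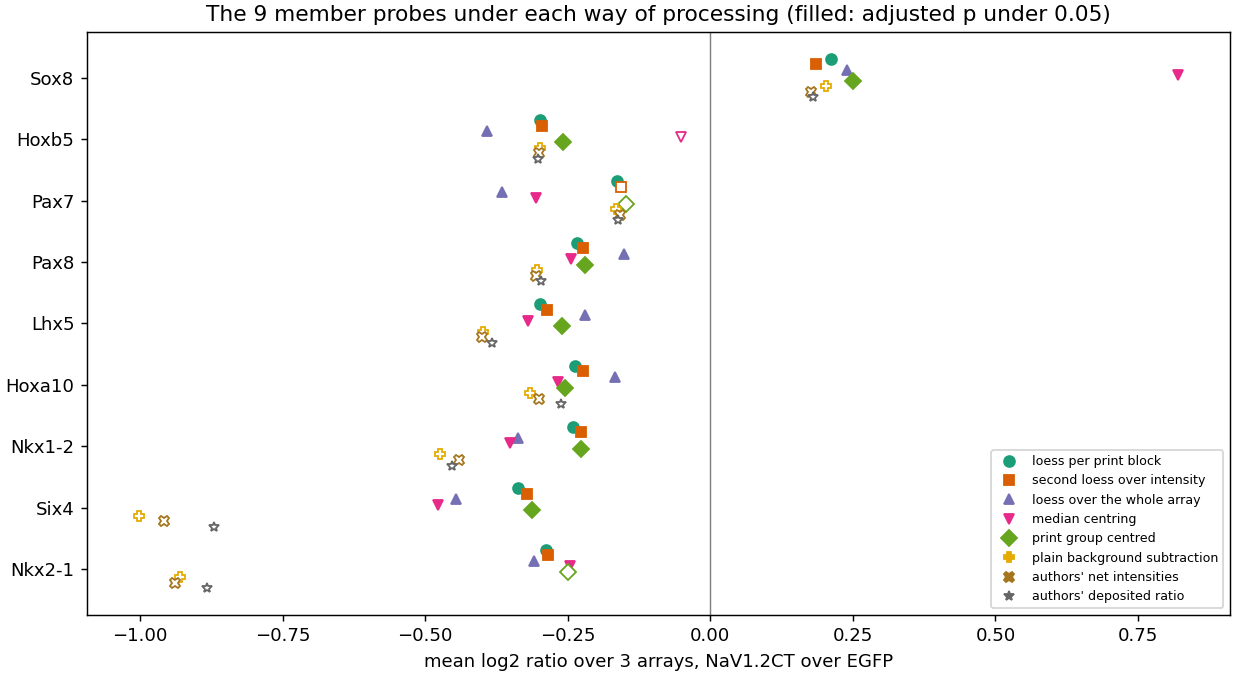
Mean log2 ratio over 3 arrays, NaV1.2CT over EGFP (horizontal axis), of the 9 member probes under each way of processing, with filled symbols for an adjusted p under 0.05. All symbols of a probe lie on the same side of 0, Hoxb5 comes closest to 0 with median centring, and the open symbols of Six4 and Nkx2-1 near -1 come from settings without the offset.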

How the data were processed

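RNA of N1E-115 cells was hybridised to 3 arrays of 23232 spots (1235 empty, 231 for GAPDH as control). The deposited raw and background intensity are, per the file headers, means of each spot in each channel. Net intensity was also deposited, and the authors' NaV1.2CT net values carry a factor that differs between spots. The deposited ratio is EGFP over NaV1.2CT net intensity, per the file headers. The deposited score is a z-score per spot, and 55 members have none on high glucose replicate 2. The series table holds the same z-scores. How the factor and score were made, and the scanner and its software, are not given in the sources used here. Raw and background intensities were corrected with normexp at an offset of 50 in limma 3.58.1 (R 4.3.3). The log2 ratio of NaV1.2CT over EGFP, which was computed from these deposited intensities, was normalized by loess within each of 48 print blocks (span 0.3, empty spots at weight 0).

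Averaging of spots that share accession and description turned 21766 gene spots into 21761 probes. Tests used gene probes only, with no filter on dim ones, and different probes of a gene stayed separate. Of the 139 members, 133 matched a current mouse symbol, 3 an older symbol, and 3 kept the file's symbol. Comparisons were fitted with limma's lmFit and eBayes and adjusted after Benjamini and Hochberg over all 21761 probes, two-sided, at 0.05. They set the mean of the high glucose arrays against 0, the mean of 3 arrays against 0, and low minus high glucose, where the single low glucose array is taken to vary as much as the rest. These fits left 1, 2 and 1 residual degrees of freedom. The fits over 3 arrays and of low minus high glucose were tested on simulated data. Alternatives changed the normalization, the background correction, the starting values, the filter on dim probes and the arrays used.

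The members and lists were chosen with earlier results of these data known. Named are the members called in any comparison, the highest and lowest 3-array mean of each family and Hox cluster, the 3 most positive and 3 most negative differences between glucose levels, the 5 brightest, all probes of genes with more than 1 probe, and a fixed list of crest and neural regulators. Hoxa11as, Hoxb4, Hoxb6, Hoxb7, Hoxc4, Hoxc10, Lhx2 and Pou2f2 are outside this rule and were named after their values were seen. Each list took the brightest probe of a gene. Some genes that the rule covers are not reported here.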

Additional observations from a re-analysis of the deposited data

How the results depend on the processing

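The counts of members called moved with the processing, and so did those of all probes. On the high glucose arrays, where 5 members passed, 60 passed with loess over the whole array, 71 with median centring, 11 with a second loess over intensity, 3 with plain background subtraction, 1 with the authors' deposited ratio and 10 when probes below the empty limit were left out. In this order these were 43.2%, 51.1%, 7.91%, 2.21%, 0.735% and 7.81% of the members tested. Of all probes tested, 35.1%, 37.3%, 4.43%, 0.175%, 0.327% and 4.07% passed. Over 3 arrays, where 9 passed, the counts were 59 with loess over the whole array, 69 with median centring, 4 without probes below the 25th percentile of A, and 0 with plain background subtraction, the authors' net intensities and the authors' deposited ratio (28, 25 and 27 by limma at an unadjusted p of 0.05). The 59 and 69 were 42.4% and 49.6% of the members, beside 34.9% and 40.4% of all probes. Without probes below the 25th percentile of A the shares were alike, at 3.85% of members and 3.83% of all probes. Leaving out each array in turn gave 5 to 10 over 3 arrays. Between glucose levels 0 passed, and 1 with median centring (Nkx6-2) and with the authors' deposited ratio (Pou4f2). Centring of print groups, which was chosen after seeing the data, gave 8 on the high glucose arrays (5.76%, beside 2.87% of all probes). In other settings the counts stayed within 1.5 times. Over all probes, 459 were called on the high glucose arrays and 837 over 3 arrays, split 150 to 309 and 254 to 583 between higher and lower. With median centring the splits were 4021 to 4090 and 4293 to 4500, and with loess over the whole array 3268 to 4380 and 3045 to 4559. The median of all probes moved by less than 0.1 in each setting. The cause of these moves was not tested.

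The 5 probes called on the high glucose arrays and the 9 called over 3 arrays kept their direction wherever they were tested. With plain subtraction 0 of the 5 passed, and Nkx2-1, Lhx2 and Pou4f2 were called instead. With median centring Hoxb5 was at -0.09 (limma adjusted p = 0.29) on the high glucose arrays. Without the low glucose array Hoxa10, Pax7, Nkx1-2 and Nkx2-1 did not pass over the others, without high glucose replicate 1 Sox8, Hoxa10, Pax7 and Nkx2-1 did not, and without replicate 2 Pax7 did not. Leaving out a high glucose array leaves no residual degrees of freedom on the high glucose arrays or between glucose levels, so no count was had there. Members that were not called changed sign and passed in the following settings, with the cause not tested. With median centring on the high glucose arrays these were Pou5f1 (0.30), Irx4 (0.17), Pou2af1 (0.34), the AF098640 probe of Pax6 (0.39) and Sox4 (0.19). With median centring over 3 arrays they were Irx2 (-0.13), Pou5f1 (0.37), Hoxd9 (-0.15), Irx4 (0.20), Pou2af1 (0.25) and the NM_008849 probe of Pou1f1 (0.22). With loess over the whole array the NM_008500 probe of Lhx6 was at -0.13 over 3 arrays. Signal over background limits the values of Six4, Nkx1-2, Nkx2-1 and Pou4f2. Both RNAs shared an array, so each ratio compares the plasmids within that array. The glucose levels, with 1 array at low glucose, were not compared in pairs.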

Other observations

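Genes with several probes let the same name be read more than once. Of the members, 12 genes had 25 probes in all, and none of the 12 had every probe called. Sox11 is represented by 3 probes: AK012306 had log2 ratios of -0.18, -0.12 and -0.03, AK018080 had -0.03, 0.0070 and -0.05, and NM_009234 had 0.06, 0.08 and 0.11. The first of these was below 0 on every array and the last above 0 on every array, and limma's test passed for none (adjusted p from 0.132 to 0.713). Nkx1-2 was the 1 gene of the 12 with a called probe, and its probe with signal on 3 arrays was the uncalled one.

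The files describe some spots by sequences other than the named gene's normal mRNA. The Sox10 spot carries the cDNA of a mutant, a Pax6 spot a promoter sequence, and the Hoxc10 and Hoxc4 spots share an old cluster name. Their values stand under the file's symbol.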
